A study of Sus scrofa with 4 samples.

Results

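Genes that natural killer (NK) cells and killer T cells use to recognise and kill targets were followed in the spleen of miniature pigs: the receptor genes NCR1 and KLRK1, and the effector genes FASLG and GZMB. Every probe on the array that was named by a pig RefSeq transcript of these genes was taken, which gave 5 probes for 4 of the 3020 genes with a named probe. NCR1, KLRK1 and FASLG had 1 probe each and GZMB had 2. On each of the 4 arrays all 5 probes were well above background, without saturation or a flagged spot.

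NK cells kill infected or transformed cells without prior immunisation, and they read a balance of activating and inhibitory receptors on their surface. NCR1 encodes NKp46, an activating receptor found largely on NK cells, and KLRK1 encodes NKG2D, an activating receptor of NK cells and killer T cells that binds stress-induced ligands. After activation the cell either releases granules that carry granzymes such as granzyme B, the product of GZMB, or engages the death receptor Fas on the target through Fas ligand, the product of FASLG. The development and survival of NK cells depend on interleukin 15, whose receptor contains the gamma chain encoded by IL2RG.

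The data were one-colour Agilent arrays of total spleen RNA from Minnesota miniature swine. Wild-type (WT) spleens made up 3 arrays, called WT 1 to WT 3 after their labels, and 1 array carried spleen RNA of an animal whose genotype is given as IL2RG +/-. The study made such animals with TALEN nucleases, which cut a chosen DNA site, followed by somatic cell nuclear transfer, and it calls them monoallelic knockouts. Age and sex of the arrayed animals are not given in the labels, no agent was applied, and the IL2RG +/- group is a single array with no measure of its own spread. The labels do not say that the WT arrays came from separate animals, so p-values measure only the spread between these 3 samples, which may be technical.

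The slide barcodes placed WT 1 and IL2RG +/- on slide 1, and WT 2 and WT 3 on slide 2. Spots well above background made up between 66.1% and 72.7% of each array. Values are given as log2 of the processed signal minus the 75th percentile of that array, so that a value of 0 is the 75th percentile, and each probe is compared with itself across arrays. Each gene is read against the mean of all 3 WT arrays, with the limma test across all probes, and against WT 1 alone, which shared the slide, without a test. In whole-tissue RNA, fewer cells of a type and less RNA per cell cannot be told apart.

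The IL2RG transcript itself was lowest on the array labelled IL2RG +/- with both of its probes, as were 34.9% of all probes tested. The brighter probe read -0.64, -1.49 and -1.48 on WT 1, WT 2 and WT 3, and -1.98 on IL2RG +/-. It differed by -0.77 from the WT mean and by -1.34 from WT 1. The other probe read -1.18, -2.11 and -2.18 on the WT arrays and -3.95 on IL2RG +/-, a difference of -2.12 from the WT mean (SE 0.53, limma adjusted p = 0.403) and of -2.77 from WT 1. Neither probe passed the test, and the position of the probes relative to the deletion was not examined.

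No member of the group passed the test, which asked for a Benjamini-Hochberg adjusted p under 0.05 together with a 2-fold difference. Among all 33470 probes tested, 0 passed it (0%), and at an unadjusted p under 0.05 with a 2-fold difference 1494 probes (4.46%) were higher and 1678 (5.01%) were lower in IL2RG +/-. None of the 5 member probes reached even the unadjusted threshold. NCR1 lay below all 3 WT arrays, as did 34.9% of all probes tested, whereas KLRK1, FASLG and GZMB lay inside the WT range. On slide 1 alone, all 5 probes read lower in IL2RG +/- than in WT 1 under this scaling, against 51.8% of all probes tested, but FASLG did so by only 0.08 and read higher than WT 1 under other scalings.

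**Figure D1:**
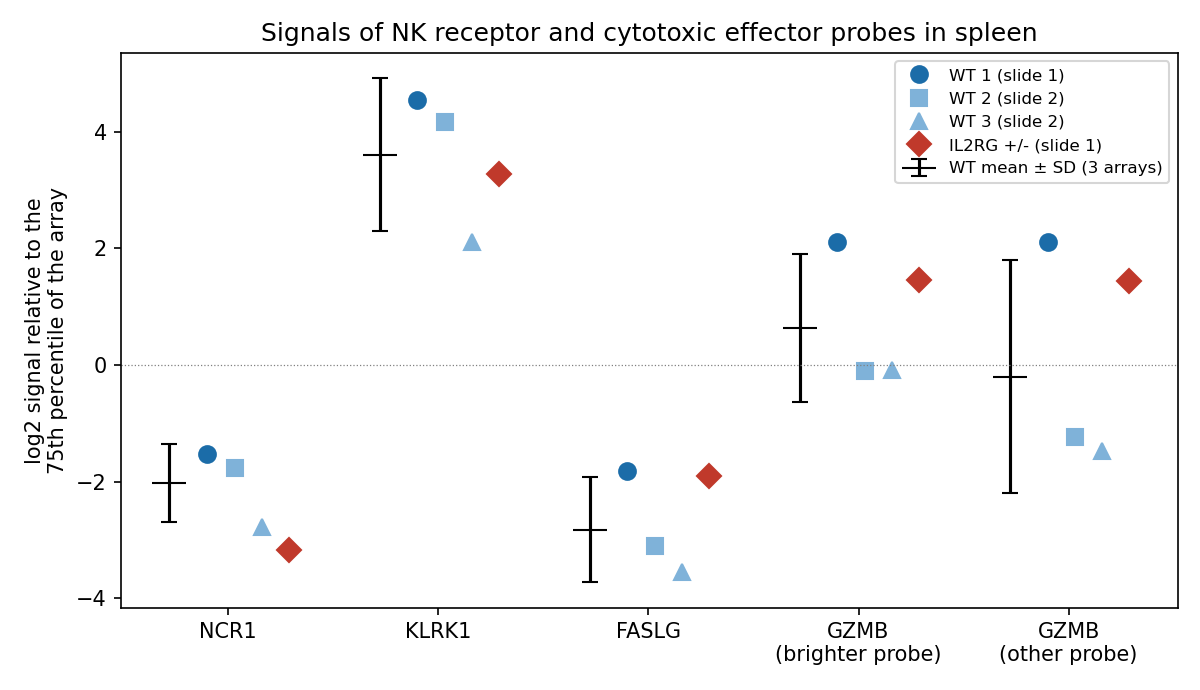
The processed signal of each member probe, relative to the 75th percentile of its array on a log2 axis, for the 4 arrays (marker shapes, with the slide in the legend), beside the WT mean and SD of 3 arrays (black bars). NCR1 is lowest on IL2RG +/-, KLRK1 is lowest on WT 3, and FASLG and both GZMB probes are high on the arrays of slide 1 and low on those of slide 2.

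NCR1 was the member with the lowest reading on the IL2RG +/- array relative to WT. The processed signal of its probe, A_72_P441967, was 223.2, 239.4 and 119.4 on the WT arrays in turn, and 71.2 on IL2RG +/-. Relative to the 75th percentile these signals were -1.52, -1.77, -2.78 and -3.18. WT 1 and WT 2 were the high arrays, WT 3 lay 1.01 below WT 2, and IL2RG +/- lay 0.40 below WT 3, which is 1.32-fold. The WT arrays therefore did not overlap with IL2RG +/-, but the gap to WT 3 was smaller than the distance between WT 2 and WT 3.

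Against the WT mean of -2.02 ± 0.67 (SD, n = 3), NCR1 was 2.23-fold lower in IL2RG +/-, a log2 difference of -1.16 (SE 0.61, 95% interval -2.86 to 0.54). The limma adjusted p was 0.541, and 10.6% of the probes tested had a lower difference. Against WT 1 on the same slide, NCR1 was 3.16-fold lower, a log2 difference of -1.66, and 3.07% of the probes tested had a lower one. Within the bin of like brightness, from 4 equal bins of all probes tested, that share was 3.17%. The interval against the WT mean includes differences in both directions.

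The order of the arrays at NCR1 held under every scaling tried, with IL2RG +/- below WT 3, but the gap between them varied. It was -0.11 after quantile normalisation, -0.13 in the deposited table, -0.08 with the median of each array subtracted and -0.03 after the normexp background correction. The scanner software gives the NCR1 spot an error of 10.5% on WT 3 and of 10.7% on IL2RG +/-, so these smaller gaps do not exceed the error of a single spot. The median difference over all probes tested was -0.11 under the scaling used here, -0.02 after quantile normalisation and 0.14 with the median subtracted.

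KLRK1 varied more among the WT arrays than between IL2RG +/- and the WT mean. The signal of its probe, A_72_P621363, was 15023, 14733.0 and 3543.0 on the WT arrays in turn, and 6258.8 on IL2RG +/-, which gave 4.55, 4.17, 2.11 and 3.28 relative to the 75th percentile. WT 1 and WT 2 were high and close to each other, WT 3 was lowest, and IL2RG +/- lay between WT 3 and WT 2. WT 3 was 4.17-fold lower than WT 2 although both lay on slide 2, a pair that was at least 2-fold apart for 7.78% of the probes tested.

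The WT mean of KLRK1 was 3.61 ± 1.31 (SD, n = 3), a larger SD than that of 94% of the probes tested. IL2RG +/- differed from this mean by -0.34 (SE 1.11, 95% interval -3.45 to 2.77, limma adjusted p = 0.914). On slide 1, KLRK1 was 2.42-fold lower in IL2RG +/- than in WT 1, a log2 difference of -1.28. Of the probes tested, 5.2% had a lower difference from WT 1, and of those in the brightest of the 4 bins 1.67% did. Read against all WT arrays, the same array was within the range, 1.16 above WT 3 and 0.90 below WT 2.

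NCR1 and KLRK1 ran from WT 1 as the highest WT array through WT 2 to WT 3, as did FASLG and 1 of the 2 GZMB probes. Unlike these, NCR1 and KLRK1 were more than 2-fold lower in IL2RG +/- than in WT 1, as were 8.07% of all probes tested.

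FASLG had the same order of the WT arrays, but IL2RG +/- stood beside WT 1. The signal of its probe, A_72_P088726, was 181.0, 94.4 and 69.9 on the WT arrays in turn, and 172.5 on IL2RG +/-, or -1.82, -3.11, -3.55 and -1.90 relative to the 75th percentile. Both arrays of slide 1 were high and both of slide 2 were low. IL2RG +/- and WT 1 differed by 0.08, or 1.06-fold, which is less than the spot error of 10.1% and 10.2% on these arrays.

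Against the WT mean of -2.83 ± 0.90 (SD, n = 3), FASLG differed by 0.92 (SE 0.78, 95% interval -1.27 to 3.12, limma adjusted p = 0.663). The difference from WT 2 was 1.21 and that from WT 3 was 1.65, so the value depends on which WT array is used. WT 1 was the only WT array of its slide, so slide and sample cannot be told apart there. The order of FASLG against WT 1 also turned with the scaling. IL2RG +/- was above WT 1 by 0.03 after quantile normalisation and by 0.07 with the median subtracted.

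GZMB was highest on WT 1 and next highest on IL2RG +/- with both probes. The brighter probe, A_72_P606603, gave signals of 2763.4, 764.2 and 775.4 on the WT arrays in turn, and 1773.8 on IL2RG +/-, or 2.11, -0.10, -0.08 and 1.46 relative to the 75th percentile. WT 1 was highest, IL2RG +/- came next, and WT 2 and WT 3 lay 0.02 apart. On the same slide GZMB was 1.57-fold lower in IL2RG +/- than in WT 1, a log2 difference of -0.65, whereas it was 2.93-fold higher than in WT 2 and 2.9-fold higher than in WT 3.

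The mean over the WT arrays at this probe was 0.64 ± 1.27 (SD, n = 3), and IL2RG +/- differed from it by 0.81 (SE 1.08, 95% interval -2.20 to 3.82, limma adjusted p = 0.771). The difference between WT 1 and the mean of the WT arrays on slide 2 was 2.20, larger than any difference between IL2RG +/- and a WT array. Of all probes tested, 6.45% were at least 2-fold higher in WT 1 than in that mean.

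The other GZMB probe, A_72_P210527, read 2771.3, 347.7 and 295.9 on the WT arrays in turn, and 1751.4 on IL2RG +/-. These signals stood at 2.11, -1.23, -1.47 and 1.44 relative to the 75th percentile. The arrays of slide 2 were again lowest, and WT 1 was 10.2-fold higher than WT 2 and 12-fold higher than WT 3.

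Both probes gave nearly the same difference between IL2RG +/- and WT 1, -0.65 and -0.67, but they differed in the contrast across slides. WT 1 exceeded the average of both slide 2 arrays by 2.20 with the brighter probe and 3.46 with the other, a spread of 1.27 that exceeded that of 89.5% of the 1397 genes with several probes tested. For the difference from WT 1 their spread was 0.02, and 6.01% of those genes had a smaller one. Against the WT mean the second probe differed by 1.64 (SE 1.67, 95% interval -3.04 to 6.31, limma adjusted p = 0.71).

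**Figure D2:**
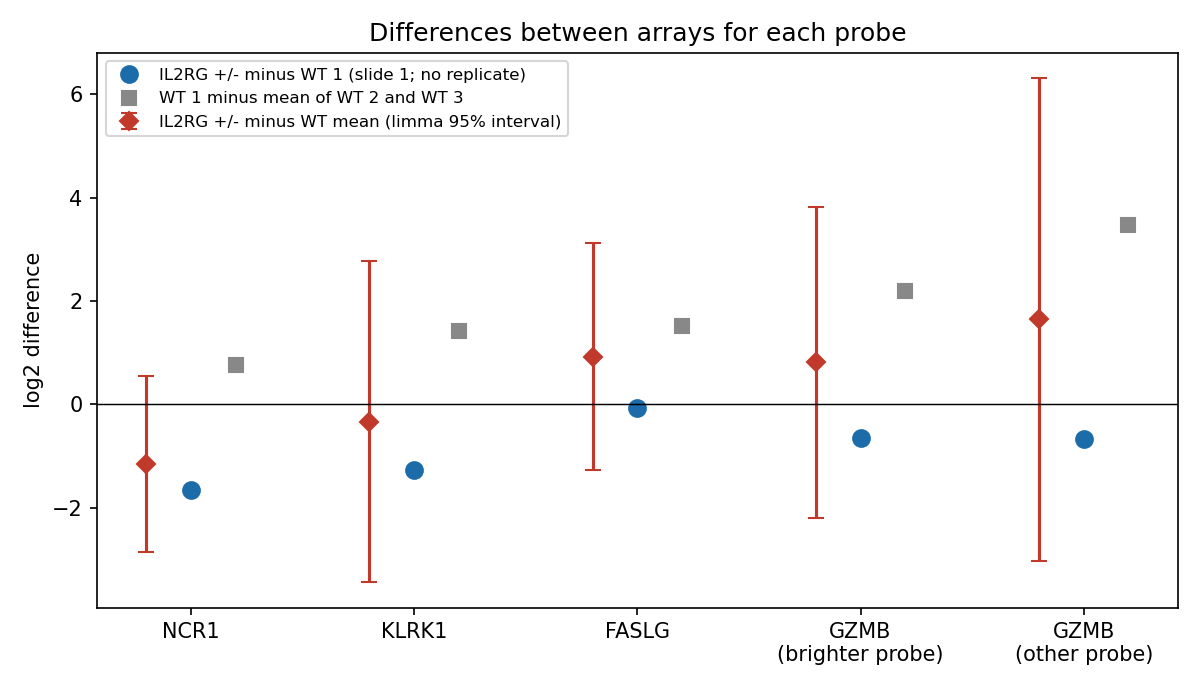
The log2 difference of IL2RG +/- from the WT mean, with its 95% limma interval (red), and from WT 1 on the same slide (blue), for the 5 member probes, with the difference of WT 1 from the slide 2 average in grey. All 5 intervals include 0, both GZMB probes change sign between the WT mean and WT 1, and FASLG lies near 0 against WT 1, with a sign that turns with the scaling.

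The choice of the WT reference therefore set the direction for GZMB, while FASLG lay above the WT mean and close to WT 1. With the slide as a block, where the coefficient equals the difference from WT 1, the limma difference was -0.08 for FASLG (adjusted p = 0.934) and -0.65 for GZMB (adjusted p = 0.371). Without WT 1 it was 1.43 for FASLG (adjusted p = 0.103) and 1.55 for GZMB (adjusted p = 0.0778), but slide and genotype cannot be told apart in that fit. For NCR1 the difference was -1.66 with the block (adjusted p = 0.377) and -0.91 without WT 1 (adjusted p = 0.334). KLRK1 gave -1.28 with the block (adjusted p = 0.668) and 0.13 without WT 1 (adjusted p = 0.939).

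The likeness of the 4 patterns was described by the Euclidean distance between the 4 log2 values of a gene after its own mean was subtracted. With the brighter GZMB probe, FASLG and GZMB were the closest pair of members, at 0.65, and NCR1 and KLRK1 the next, at 1.16. With the other GZMB probe the distance from FASLG was 1.72. NCR1 and GZMB were the farthest apart, at 2.20 with the brighter GZMB probe and 3.32 with the other. These distances rest on 4 arrays that share their slides and scaling, so they are a description and were not tested.

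Of the 2428 named genes searched, those nearest to NCR1 were F12 at a distance of 0.29, S1PR5 at 0.32 and ERP27 at 0.37, where the median gene lay at 1.59. S1PR5 encodes a sphingosine phosphate receptor that guides the exit of NK cells from lymphoid tissue, and F12 encodes a coagulation factor. Nearest to KLRK1 were ST6GALNAC4 at 0.69, TAP2 at 0.70 and GZMM at 0.70, which encode a sialyltransferase, a peptide transporter of antigen presentation and granzyme M. Nearest to FASLG were IL12RB1 at 0.14, LOC780435 at 0.21 and EIF2AK2 at 0.24, where IL12RB1 is a chain of the interleukin 12 receptor and EIF2AK2 an interferon-induced kinase. Nearest to GZMB, read with its brighter probe, were NOS2 at 0.35, GZMH at 0.38 and AMHR2 at 0.38, of which NOS2 is the inducible nitric oxide synthase and GZMH another granzyme. In the gene order of the assembly Sscrofa11.1, GZMH is also the neighbour of GZMB. The other GZMB probe lay farther from the brighter one, at 1.27, than these genes did, and its own nearest genes were not sought.

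**Figure D3:**
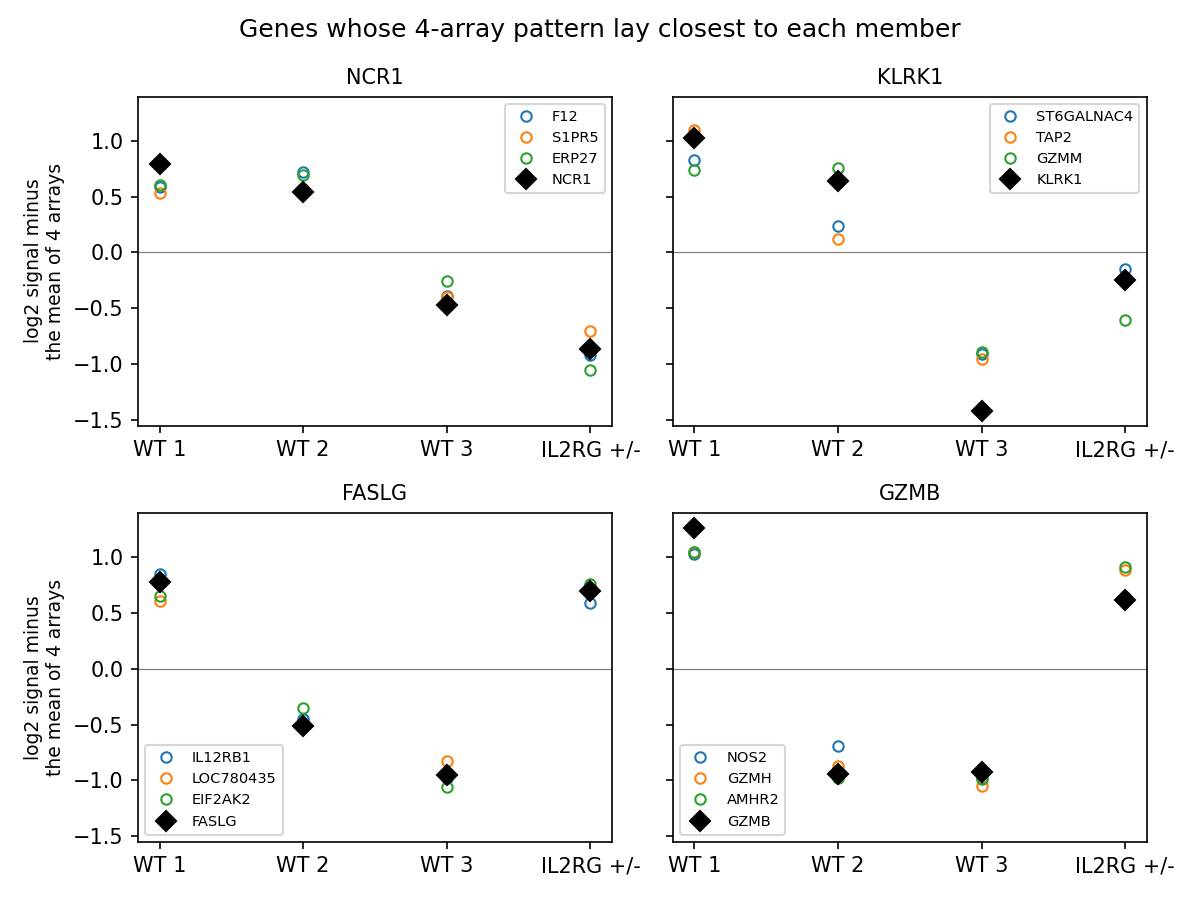
The 4 array values of each member (black diamonds) and of the 3 named genes closest to it (open circles), each centred on its own mean, in log2 units on the y axis, with the arrays on the x axis. NCR1 and its nearest genes are high on WT 1 and WT 2 and lowest on IL2RG +/-, whereas FASLG and GZMB and their nearest genes are high on WT 1 and on IL2RG +/-. GZMB is drawn with its brighter probe.

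The other genes of NK cells and cytotoxicity were read in 8 lists, 3 of which hold the members, with 63 measured genes besides them. None of these 63 passed the test, and at an unadjusted p under 0.05 12 were higher (19%) and 1 was lower in IL2RG +/-, against 10.7% and 3.87% of the 2738 named genes tested. Against the WT mean 50 of them (79.4%) read higher, beside 54.7% of named genes, with a median difference of 0.91 beside 0.08. Against WT 1, 41 of them (65.1%) read higher, beside 58.8% of named genes, and their median difference was 0.32 beside 0.12. WT 1 was itself above the average of the slide 2 arrays at 56 of the 63 genes (88.9%), where 55% of named genes were. IL2RG +/- lay above all 3 WT arrays at 38 of them (60.3%) and below all 3 at 6, beside 38.1% and 24.1% of named genes. These counts include IL21 among the higher genes, although it entered the test only through IL2RG +/-, the one array where it was well above background.

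Beside NCR1 and KLRK1, the NK receptor list had 4 measured genes, and the list was divided, with 3 of 6 higher and 3 lower than the WT mean and none past the test. FCGR3A, the Fc receptor CD16 through which NK cells and macrophages bind antibody, read 6.40, 5.55 and 5.06 on the WT arrays and 7.39 on IL2RG +/- (difference 1.72, limma adjusted p = 0.444). CD96, a receptor of NK and T cells for nectin family ligands, read 1.34, 1.66 and -0.37 on the WT arrays and -0.46 on IL2RG +/-, a difference of -1.34 (limma adjusted p = 0.605). CD2, an adhesion receptor of T and NK cells, differed by 1.58 from the WT mean and by 0.67 from WT 1, and KIR2DL1, an inhibitory receptor, by 0.84 and 0.38. CD96 stood with NCR1 in being below all WT arrays and, with a difference of -1.81, lower than WT 1, while FCGR3A, CD2 and KIR2DL1 lay above all WT arrays.

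Receptor adaptors carry the signal of these receptors into the cell. Of 9 measured adaptors and kinases, 7 were higher and 2 lower than the WT mean, with a median of 0.54, and none passed the test. CD247, the zeta chain that pairs with NKp46 and with the T cell receptor, read 4.19, 5.27 and 3.57 on the WT arrays and 3.12 on IL2RG +/-, a difference of -1.23 (limma adjusted p = 0.578). The other CD247 probe differed by -0.72 from the WT mean. FCER1G, the gamma chain of Fc receptors that also pairs with NKp46, differed by 1.00 (limma adjusted p = 0.435), and TYROBP, the adaptor DAP12, by 0.96 (limma adjusted p = 0.454). SH2D1A, an adaptor of SLAM receptors, differed by 1.53 from the WT mean and by 0.05 from WT 1, and GRB2 by 1.09 and 0.66. FCER1G and TYROBP are also expressed by macrophages. Of the NKG2D ligands, 1 was measured: ULBP1 was well above background on 1 of 3 WT arrays, WT 1, from which IL2RG +/- differed by 0.32.

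Granule proteins were mostly higher than the WT mean and lay on both sides of WT 1. Of 9 measured genes, GZMB included, 8 were higher than the WT mean, with a median of 1.24, while the median against WT 1 was 0.07, with 5 genes above WT 1 and 4 below. None passed the test. The 1 gene below the WT mean was GZMM, which encodes granzyme M, with a difference of -0.81 from the WT mean and of -1.35 from WT 1. GZMK, which encodes granzyme K, had the largest difference of the list, with values of 0.96, -0.56 and -2.93 on the WT arrays and 3.13 on IL2RG +/- (difference 3.97, SE 1.63, limma adjusted p = 0.476), and it was 2.17 above WT 1. GZMA, which encodes granzyme A, read -1.40, -4.04 and -6.48 on the WT arrays and -1.34 on IL2RG +/-, with WT 3 not well above background, so that its WT mean rests on 2 measured arrays and a dim one. Its difference was 2.64 from that mean and 0.07 from WT 1. GZMA, like FASLG, was high on slide 1 and low on slide 2.

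NKG7, a granule membrane protein of killer cells, differed by 1.24 from the WT mean and by 0.33 from WT 1. LAMP1 and LAMP2, membrane proteins of lysosomes and granules in most cells, differed by 1.30 and 1.67 from the WT mean, and by 0.91 and 1.11 from WT 1. All 9 granule protein genes read higher on WT 1 than on average over slide 2, by a median of 1.36.

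All 5 measured genes of granule release were above the WT mean, with a median of 0.91, and 4 of 5 were above WT 1. STX11, a syntaxin needed for the fusion of cytotoxic granules with the cell membrane, read 2.27, 1.60 and 1.80 on the WT arrays and 4.81 on IL2RG +/-, a difference of 2.92 (SE 0.38, limma adjusted p = 0.304). ITGAL, the alpha chain of the adhesion integrin LFA-1, differed by 2.02 (limma adjusted p = 0.426), and its partner ITGB2 by 0.91 (limma adjusted p = 0.463). AP3B1, a subunit of a sorting complex for lysosomes, differed by 0.72, and RAB27A, the small GTPase that docks granules, by 0.05. STX11 and ITGAL stood at least 2-fold above every WT array, as did 7.34% of named genes.

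In the list of death ligands and their path, 14 of 15 genes were above the WT mean, with a median of 0.98, and 11 of 15 were above WT 1, with a median of 0.38. TNFSF10, the death ligand TRAIL, read 3.16, 0.96 and 0.26 on the WT arrays and 3.73 on IL2RG +/-, which was 2.27 above the WT mean and 0.57 above WT 1. TNF read 2.29, 2.00 and 1.33 on the WT arrays and 3.69 on IL2RG +/-, a difference of 1.82 (limma adjusted p = 0.41), and was 1.40 above WT 1. FAS, the receptor of Fas ligand, differed by 1.72 from the WT mean and by 0.71 from WT 1. CASP8, the caspase that death receptors activate, differed by 1.07, with its 3 probes between 0.00 and 1.09, and BID, which links caspase 8 to mitochondria, differed by 1.21. FASLG, TNFSF10 and BID all read higher on both arrays of slide 1 than on both of slide 2.

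NK cell regulators gave 4 genes above and 2 below the WT mean among 6 measured. STAT4, which transmits interleukin 12 signals, read 0.52, 0.66 and -0.07 on the WT arrays and -0.70 on IL2RG +/-, a difference of -1.07 (limma adjusted p = 0.458) and of -1.22 from WT 1. The other STAT4 probe differed by -0.51 from the WT mean. STAT5A, a transmitter of interleukin 2 and 15 signals, read -0.77, -1.28 and -0.87 on the WT arrays and 0.34 on IL2RG +/- (difference 1.31, limma adjusted p = 0.41). STAT5B differed by 0.37 from the WT mean, GATA3 by 0.37 and ETS1 by -0.25, where the last 2 lay within the WT range.

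Cytokines that act on NK cells or come from them, and their receptors, lay on both sides of the WT range. Of 16 measured genes of cytokines and their receptors, 10 were higher and 6 lower than the WT mean, 5 stood at least 2-fold above every WT array, beside 7.34% of named genes, and none passed the test. IL15, the survival cytokine of NK cells, read -0.57, -1.34 and -1.19 on the WT arrays and 1.71 on IL2RG +/-, a difference of 2.74 (SE 0.43, limma adjusted p = 0.315) and of 2.28 from WT 1. IFNG, the interferon that NK and T cells secrete, read -1.80, -3.35 and -4.63 on the WT arrays and 0.38 on IL2RG +/- (difference 3.65, limma adjusted p = 0.432). IL18 differed by 1.95, IL12B, a subunit of interleukin 12, by 2.46 and CCL4, a chemokine of activated lymphocytes and macrophages, by 2.63. IL21, counted among the higher genes, was well above background on IL2RG +/- alone, so its WT mean rests on dim values and its direction carries no weight. IL12RB2, the signalling chain of the interleukin 12 receptor, was well above background on all WT arrays, at -3.60, -3.08 and -3.90, but not on IL2RG +/-. Its measured value there was -6.01, a difference of -2.49 from the WT mean (limma adjusted p = 0.342). Set at the lowest signal well above background on the IL2RG +/- array, it would be 4.87-fold lower, which is an estimate and not a strict limit.

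**Figure D4:**
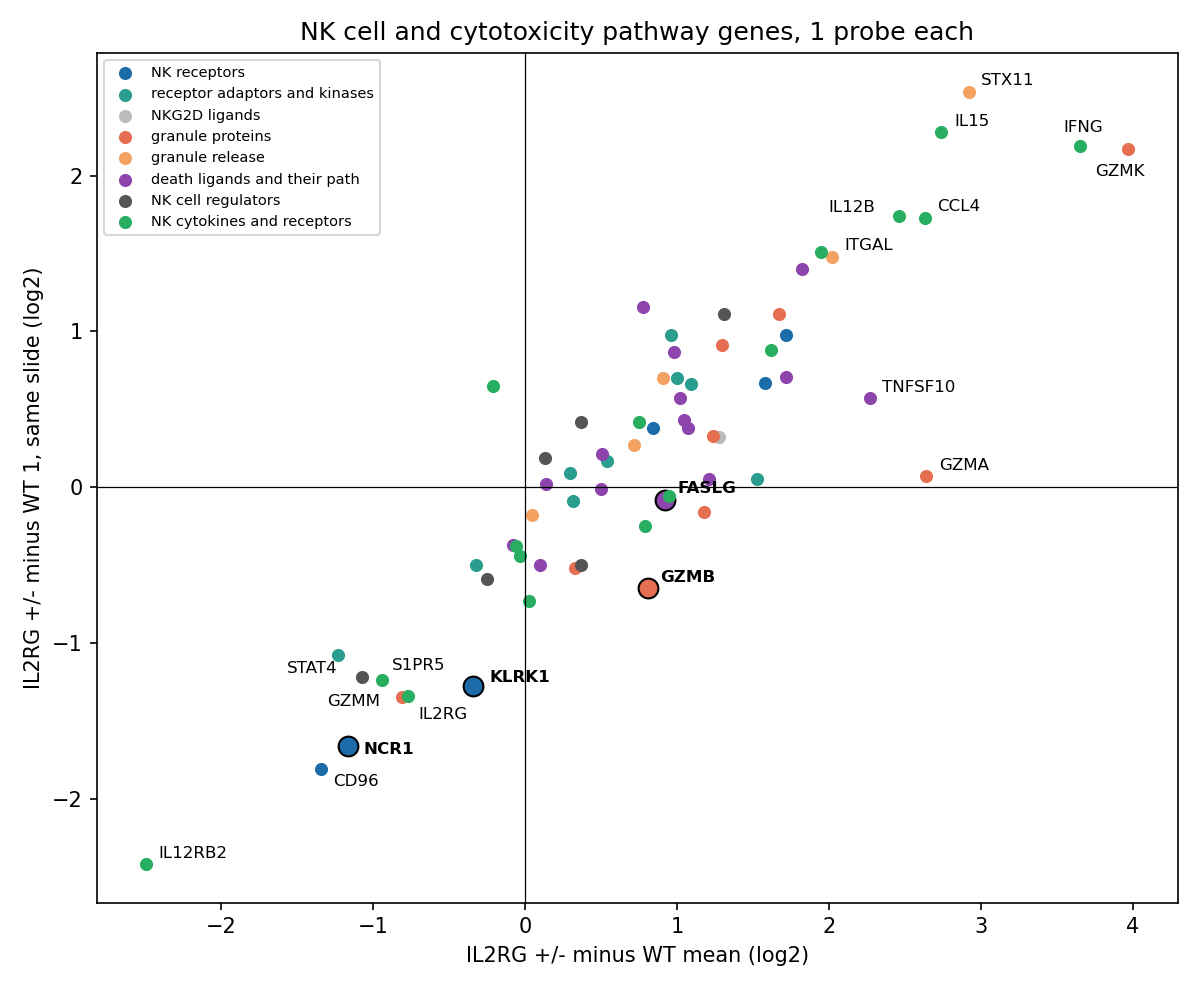
Each measured gene of the 8 lists, by its log2 difference between IL2RG +/- and the WT mean (x axis) and WT 1 on the same slide (y axis), with members outlined. NCR1 and KLRK1 lie below 0 on both axes near CD96, STAT4 and GZMM, FASLG and GZMB are above 0 only on the x axis (for FASLG under this scaling), and STX11, IL15, IFNG and GZMK are above 2 on both. IL12RB2 is drawn at its measured value, which was not well above background on IL2RG +/-, whereas IL21 was well above background there alone.

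Markers of other cell types also differed between the arrays, and which cells carried the transcripts above was not measured. Of 11 macrophage markers measured, 11 were higher than the WT mean, with a median of 1.56, and their summed signal relative to the 75th percentile was 545 to 705 on the WT arrays and 1134 on IL2RG +/-. The summed signal of 7 T cell markers was 23.2 to 72.4 on the WT arrays and 30.7 on IL2RG +/-. This sum is weighted to CD247, the brightest of the 7 on every array. CD3E, a chain of the T cell receptor complex, read 2.42, 3.38 and 1.65 on the WT arrays and 1.95 on IL2RG +/-. CD8A, found on killer T cells and on porcine NK cells, read 1.74, 0.36, -0.70 and 2.24 in the same order. Of the 7, 4 were higher than the WT mean (57.1%, beside 54.7% of named genes) and 3 lower. CD3D, CD3G, CD4 and CD8A differed by 0.25, 0.07, 1.73 and 1.78, and CD3E, CD247 and LCK by -0.53, -1.23 and -0.32. Each of these markers was well above background throughout, and the T cell list shared CD247 and LCK with the list of adaptors.

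Among markers of B cells, MS4A1 and CD79A differed by -4.92 and -4.12 from the WT mean (limma adjusted p = 0.284 and 0.303), and CD72 and BLNK by 1.49 and 0.76. The 4 granulocyte markers summed to 1.26, 15.7 and 99.6 on the WT arrays in turn and to 12.7 on IL2RG +/-, so they were lowest on WT 1 and highest on WT 3. Of 7 markers of gamma delta T cells, 1 had a named probe, and CD163L1 was not well above background on any array. Spleen markers were measured for 9 of 13 genes, all well above background. The part of these cell types and of the slide in the values of NCR1, KLRK1, FASLG and GZMB was not tested.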

How the data were processed

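Spleen RNA was labelled with Cy3 and hybridised to porcine 4x44K arrays, 1 sample each. The authors extracted the deposited intensities with the software Agilent Feature Extraction, version 11.0.1.1 in the submitters' processing notes. The files hold 1 channel, although the methods describe a dye pair. The intensity used is the processed signal, after the software's background correction and not normalised between arrays. A deposited table of log2 values for 27421 probes matched quantile normalisation of these signals (median absolute log2 difference 0.000178, median of each column 8.62) and served as an alternative. Its scale and centring follow from that match, and it holds levels, with no direction to settle.

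Flagged spots and controls were left out, spots of a probe were averaged, and the 75th percentile of each array was subtracted from log2 signal. Of 43575 probes, 33470 were well above background on at least 1 array and were tested with limma 3.58.1 in R 4.3.3 (lmFit, eBayes, two-sided, Benjamini-Hochberg adjustment). Residual degrees of freedom were 2, all from WT arrays, and eBayes added 1.93, so the lone IL2RG +/- array was assumed to vary like WT. With the slide as a block or a WT array left out, 1 residual degree of freedom remained. An exact permutation test over 4 arrays cannot give a p below 0.25. The number of arrays limits the precision.

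Accessions were matched to RefSeq transcripts of Sscrofa11.1 for names only, which named 6686 of 43603 probes (15.3%) and left the others unnamed here. The brightest probe stood for a gene. Probe coordinates and sequences were not used here. Every probe of the members is given, with IL2RG as the label check, and up to 5 genes of each list, by size of difference from the WT mean, plus any at least 2-fold outside the WT range. The 3 genes of nearest pattern to each member are also named, and markers of other cell types beside them. The members and lists were chosen with earlier results of these data known. Alternatives were other scalings, the filter, eBayes with a trend, the slide as a block, each WT array left out and the methods' t-test. Normexp was run on the median signal in place of the planned mean signal, a choice made after seeing the files. The fit was also run on simulated data with no slide effect and with differences far larger than those of the members. That run cannot show how the fit handles differences of their size. Python 3.11.15, pandas 2.3.3 and numpy 2.4.6 read the files.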

Additional observations from a re-analysis of the deposited data

How the results depend on the processing

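None of the member differences passed the test under any of the alternatives run with limma. The direction of NCR1 held in all 16 of its alternatives, between -1.66 and -0.60. Several of these could not change its difference, which stayed at -1.16: the filters, the trend in eBayes, the t-test and the mean over its 1 probe. Blocking on the slide, the differences of FASLG and GZMB turned to -0.08 and -0.65, since that fit compares IL2RG +/- with WT 1 alone. Leaving out each WT array in turn gave -1.54 to -0.91 for NCR1, -1.09 to 0.13 for KLRK1, 0.56 to 1.43 for FASLG and 0.44 to 1.55 for GZMB. The highest values of KLRK1, FASLG and GZMB came without WT 1, and the lowest of KLRK1 without WT 3. Over the other alternatives and these, the adjusted p of each member stayed above 0.05. The fits with the slide block or without a WT array had only 1 residual degree of freedom. The number of probes past the threshold over the whole array was 0 with limma, 4 after normexp on the median signal, an alternative chosen after seeing the data, and 6 with a trend in eBayes. The methods' t-test gave 1333 probes at an unadjusted p under 0.05 with a 2-fold difference and 0 after Benjamini-Hochberg or Bonferroni adjustment. The cause of these changes was not tested. Under the slide block, the medians of the lists moved to -0.45 for NK receptors, from 0.25, and to 0.38 for death ligands, from 0.98, as well as to 0.09 for adaptors and kinases, 0.07 for granule proteins, -0.15 for regulators and 0.18 for cytokines and receptors. Without WT 3 the NK receptor median was -0.22. NCR1, the member whose signal on IL2RG +/- was 71.2, differed by -0.60 from the WT mean and by -0.98 from WT 1 after normexp, so its size depends on the background correction. No paired analysis was possible because the label of the IL2RG +/- array gives no replicate number, and the slide block pairs it with WT 1 by slide alone. The comparison rests on 1 IL2RG +/- array, although the member probes were well above background on every array.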
